A study of Mus musculus with 2 samples.

Results

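The 9 genes described here encode the major histocompatibility complex (MHC) class I molecule and the machinery that supplies it with peptides, measured in Id1 knockout and wild-type mouse embryonic stem (ES) cells. They are the heavy chain genes H2-K1 and H2-D1, the light chain gene B2m, the immunoproteasome subunit genes Psmb8, Psmb9 and Psmb10, the peptide transporter genes Tap1 and Tap2, and the tapasin gene Tapbp. Their probe sets were selected by gene symbol, as every probe set that the platform annotation assigned to exactly 1 of the 9 symbols, which gave 25 of the 22626 probe sets that are not controls, for 9 of the 12393 genes on the array. The genes were proposed with differences between these arrays already known, so their values between the genotypes are a description and were not tested. The study hybridised biotin-labelled total RNA to 1 array for each of 2 genotypes, Id1-/- ES cells and wild-type ES cells. Both cultures were held on gelatin with serum and leukaemia inhibitory factor (LIF), which keeps mouse ES cells in self-renewal. The labels give no strain, passage, clone, sex or age of the lines, and do not say how Id1 was deleted.

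Class I molecules present short peptides from the inside of a cell at its surface, where cytotoxic T cells and natural killer cells read them. Peptides are cut by the proteasome, in which interferon-inducible subunits can replace the constitutive catalytic ones, and the TAP transporter carries them into the endoplasmic reticulum. Tapasin holds the empty class I molecule next to the transporter until a peptide is bound. The genes are induced together by interferons through IRF and STAT factors and by a complex of NLRC5 with RFX and NF-Y factors. Mouse ES cells are known for low surface class I.

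The upstream sequences of the heavy and light chain genes are shown first because the brightest probe sets of all 3 genes were 2-fold higher on the knockout array. Windows of 250 bases before the RefSeq transcription start were taken from the mouse assembly GRCm38.p6, where 8 of the 9 genes were matched by symbol and Tap2 was not. Each is printed 5′ to 3′ on the strand of its gene, H2-K1 from chr17:34000348-34000597 (minus strand), H2-D1 from chr17:35262844-35263093 (plus strand) and B2m from chr2:122147437-122147686 (plus strand). Capitals mark matches to the kappa B-like pattern of GGG and CCC 5 bases apart, to the IRF core AANNGAAA, and to TGACG followed after 20 bases by ATTGG, the complement of the NF-Y core CCAAT.
H2-K1: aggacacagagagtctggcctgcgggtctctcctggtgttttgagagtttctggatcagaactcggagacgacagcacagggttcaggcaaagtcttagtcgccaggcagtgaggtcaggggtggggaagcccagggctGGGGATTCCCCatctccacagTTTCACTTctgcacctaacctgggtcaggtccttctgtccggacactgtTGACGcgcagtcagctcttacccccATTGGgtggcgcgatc
H2-D1: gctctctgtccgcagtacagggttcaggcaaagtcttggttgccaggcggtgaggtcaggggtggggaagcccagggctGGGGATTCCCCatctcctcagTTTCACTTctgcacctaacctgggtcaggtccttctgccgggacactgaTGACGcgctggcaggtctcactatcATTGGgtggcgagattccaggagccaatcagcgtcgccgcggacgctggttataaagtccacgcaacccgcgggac
B2m: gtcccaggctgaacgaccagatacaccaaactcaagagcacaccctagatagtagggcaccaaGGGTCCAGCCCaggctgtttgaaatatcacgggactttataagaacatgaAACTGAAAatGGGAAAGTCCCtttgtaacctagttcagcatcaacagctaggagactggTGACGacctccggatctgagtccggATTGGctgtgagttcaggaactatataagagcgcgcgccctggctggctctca

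In H2-K1 and H2-D1 the order of the marked parts was the same, kappa B-like pattern, then IRF core, then TGACG and ATTGG. The alignment of these upstream windows had 166 identical bases among 190 aligned, or 87.4%. In B2m the IRF core lay before the second of its 2 kappa B-like matches. On either strand, the kappa B-like pattern was present in 12.1% of 27025 RefSeq windows of the same length, AANNGAAA in 21.6%, TGACG in 17.8% and CCAAT in 34.5%. Among the members, AANNGAAA was found in 3 of the 8 windows (H2-K1, H2-D1 and B2m), the kappa B-like pattern and TGACG each in 5 (those 3 with Psmb9 and Tap1), and CCAAT in 6 (those 5 with Tapbp). The window of Psmb8 held none of these 4 patterns and the window of Psmb10 none either. The STAT pattern TTCNNNGAA matched in Psmb8 alone of the 8 members and in 7.14% of all windows. The windows of Psmb9 and Tap1 overlap, and their matches to the kappa B-like pattern, TGACG and CCAAT are the same bases. Each of these sites is thus counted for both genes.

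The spacing of 20 bases between TGACG and ATTGG was read from H2-K1, H2-D1 and B2m themselves, so their match is no finding. The combination was present in 25 of the 27025 windows (0.0925%), 3 of them members. Of the other 22 genes, 12 had a probe set past the brightness filter explained below. None of these 12 differed by 2-fold between the genotypes in either direction. Over all genes past the filter, 3.92% were 2-fold higher and 3.92% 2-fold lower, so nothing is read from this count. The 12 genes included Trim26 and Znrd1, at log2 differences (knockout minus wild type) of -0.07 and -0.18. A match is a description of letters and shows no binding.

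Psmb9 and Tap1 start 225 bases apart on opposite strands, so the stretch between their starts lies upstream of both. It is printed because these neighbours had similar differences, given below. It runs from chr17:34187331-34187555, is given on the strand of Tap1, and has CCAAT and TGACG in capitals.
Tap1 and Psmb9: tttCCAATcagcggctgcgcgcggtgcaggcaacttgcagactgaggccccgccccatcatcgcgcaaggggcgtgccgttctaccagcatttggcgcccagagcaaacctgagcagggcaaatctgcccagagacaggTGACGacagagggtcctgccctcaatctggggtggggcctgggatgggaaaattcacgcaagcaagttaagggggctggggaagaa

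The deposited values are linear intensities, and with 1 array per genotype there is no replicate spread, no test and no p-value. Differences are log2 values of the knockout minus the wild type after each array's median was subtracted, and a gene or probe set was counted as higher or lower from a 2-fold difference on. Values under the 25th percentile, at intensities of 48.4 (Id1 KO) and 47.6 (WT), were raised to that floor, so that a difference from a floored value is a bound. A probe set passed the filter when its brighter value reached its array's median, 155.0 in the knockout or 152.5 in the wild type. As a technical yardstick, the log2 difference varied between probe sets of the same gene with a median SD of 0.22 over 2567 genes. All probe sets of a gene share the same arrays, so this SD leaves out the spread between arrays, cultures and lines. Id1 itself read 461 (Id1 KO) and 1045 (WT) (log2 difference -1.20), which checks the labels in part, since the deleted stretch is not stated. The arrays also differed on the X chromosome, where 197 of 238 genes were lower in the knockout (median -0.55), and in the Y-linked gene Eif2s3y, with signals of 633 (Id1 KO) and 2.04 (WT). The lines thus differed in sex chromosome signal, and genotype, line, sex chromosomes and culture cannot be told apart.

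Of the 25 member probe sets, 14 passed the filter, 8 were 2-fold or more above the wild type and 0 were 2-fold or more below it. The share that was 2-fold higher among all 12177 filtered probe sets was 4.18%, and the share that was 2-fold lower was 3.93%. The difference was above 0 in 13 of the 14, against 50% of all. The median log2 difference of the 14 was 1.07, beside 0.00029 over all probe sets past the filter. Since the genes were chosen from this contrast, nothing is read from these shares. The filter also favours probe sets that are bright on either array, and 3 of the 14 (Psmb8, Tap1 and Tap2) passed only through the knockout array. With both values required at the median, 6 of 11 were 2-fold higher against 2.02% of all, and with no filter 9 of 25 against 3.52%. Without probe sets whose names end in _s_at or _x_at, 5 of 8 were 2-fold higher against 4.35%. None of these 8 belongs to H2-K1 or H2-D1, so this count does not cover the heavy chains. At 1.5-fold the count was 11 of 14 (11.1% of all), and at 3-fold 2 of 14 (1.51% of all), namely 1449289_a_at of B2m and the bound of Psmb8.

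**Figure D1:**
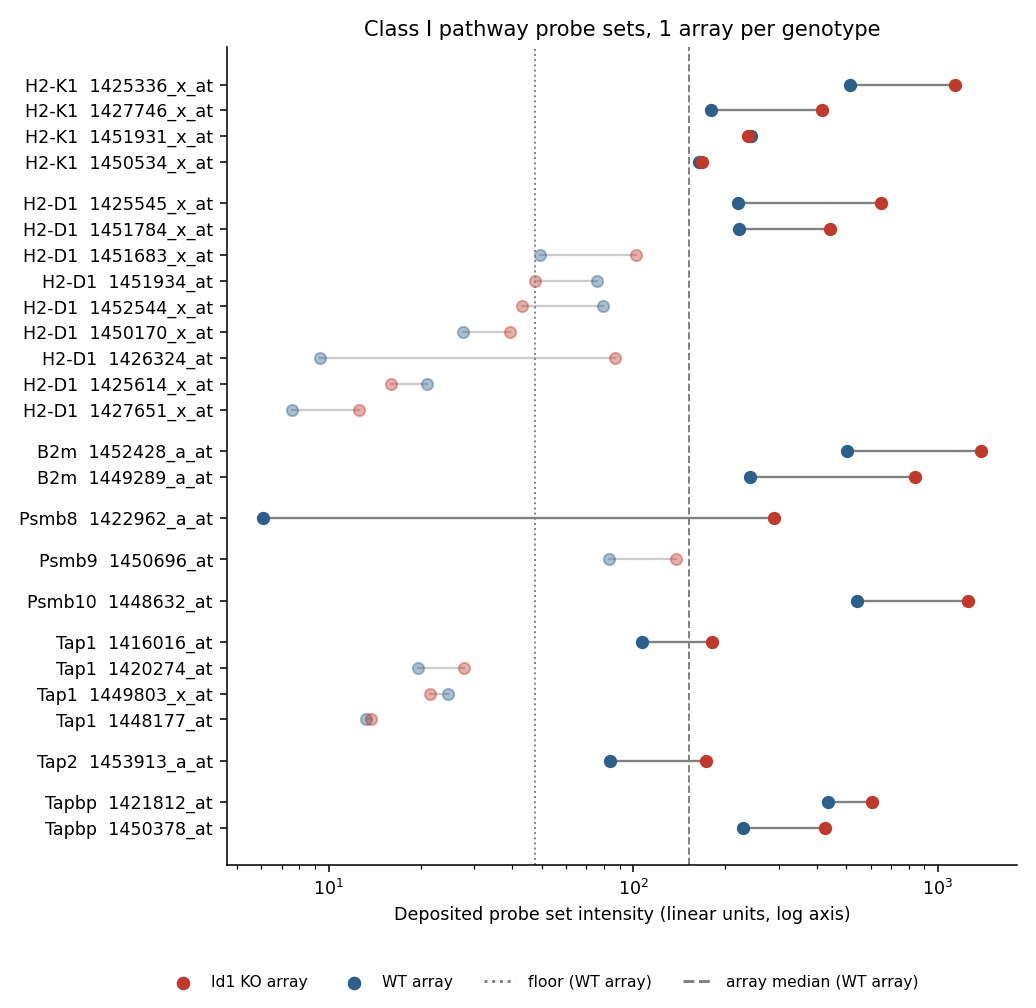
Deposited intensity (log axis) of each of the 25 probe sets of the 9 genes on the Id1 KO array (red) and the WT array (blue), 1 array each. Faint pairs did not pass the filter. The dotted line is the floor and the dashed line the median of the wild-type array, 47.6 and 152.5. The red point lies to the right for B2m, Psmb8, Psmb10, Tap2 and Tapbp, while the H2-K1 and H2-D1 probe sets are mixed.

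The heavy chains bind the peptide and are read by T cells. H2-K1, the K heavy chain, had 4 probe sets, and they fell into pairs. Probe set 1425336_x_at read 1134 (Id1 KO) and 513 (WT), a 2.18-fold higher value (log2 difference 1.12). Probe set 1427746_x_at read 416 and 179, 2.29-fold higher (1.19). The other pair showed next to no difference. Probe set 1451931_x_at read 237 (Id1 KO) and 242 (WT) (-0.05), and 1450534_x_at read 168 and 164 (0.0084). The SD of the log2 difference among the 4 was 0.68, against the median of 0.22 for genes with several probe sets. Their mean difference was 0.57, which is under 2-fold.

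H2-D1, the D heavy chain, had 9 probe sets, of which 2 passed the filter. Probe set 1425545_x_at read 652 (Id1 KO) and 220 (WT), 2.92-fold higher (log2 difference 1.55). Probe set 1451784_x_at read 442 and 222, 1.96-fold higher (0.97), just short of 2-fold. Both were higher in the knockout, with an SD of 0.40 between them. The other 7 stayed below the median on both arrays and did not go 1 way. Probe set 1451683_x_at was higher in the knockout, at 102 against 49.4 (1.02), and 1426324_at read 87.0 against 9.34, which is below the floor, so its difference of 0.85 is a bound. Probe set 1451934_at was lower, at 47.4 against 76.1, and so was 1452544_x_at, at 43.1 against 79.4; the knockout value of each was below the floor. The last 3 (1450170_x_at, 1425614_x_at and 1427651_x_at) were below the floor on both arrays and have no order.

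The heavy chain genes are close paralogs and differ between mouse strains. Of their 13 probe sets, 11 carry the suffix _x_at, which Affymetrix gives to probe sets with probes that can also match other transcripts. Signal of H2-K1, H2-D1 and other class I genes can therefore not be told apart in these probe sets. A probe set assigned to both H2-K1 and H2-D1, 1424948_x_at, was left out by the rule, and it read 244 (Id1 KO) and 124 (WT) (log2 difference 0.96).

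B2m encodes beta-2 microglobulin, the light chain that every class I molecule needs to reach the surface. Neither of its 2 probe sets has the _x_at suffix. Probe set 1452428_a_at read 1385 (Id1 KO) and 502 (WT), 2.71-fold higher (log2 difference 1.44). Probe set 1449289_a_at read 841 and 241, 3.43-fold higher (1.78). Both probe sets of B2m were above the median on both arrays, and the SD between their differences was 0.24.

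The immunoproteasome subunits replace the constitutive catalytic subunits of the proteasome and change which peptides it cuts. Psmb8, the chymotrypsin-like subunit also called LMP7, read 289 (Id1 KO) and 6.06 (WT). The wild-type value was below the floor of 47.6, so the knockout was at least 5.98-fold higher (log2 difference of at least 2.58). With the floor set at the array median instead, the bound was 0.90, under 2-fold. Psmb10, also called MECL-1, read 1251 (Id1 KO) and 542 (WT), 2.27-fold higher (1.18). Psmb9, also called LMP2, read 138 (Id1 KO) and 82.9 (WT), 1.64-fold higher (0.71). Neither value of Psmb9 reached the array median, so it was not counted. Each of the 3 genes had 1 probe set.

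The constitutive subunits that these 3 replace did not differ by 2-fold. Psmb5, the counterpart of Psmb8, had a log2 difference of 0.03, with 6978 (Id1 KO) and 6731 (WT). Psmb6, the counterpart of Psmb9, had -0.12 (5556 and 5944), and Psmb7, the counterpart of Psmb10, had -0.14 (12184 and 13250). Psme1, a subunit of the interferon-inducible proteasome activator PA28, read 1933 (Id1 KO) and 1125 (WT), 1.69-fold higher (0.76). Of 7 genes of constitutive counterparts and proteasome regulators past the filter, 0 were 2-fold higher or lower and 4 were above 0 (median 0.03).

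The TAP transporter is a pair of ABC half-transporters encoded by Tap1 and Tap2. Tap1 had 4 probe sets, and 1416016_at passed the filter at 181 (Id1 KO) and 107 (WT), 1.67-fold higher (log2 difference 0.74), or 0.23 with a floor at the median. Its other 3 probe sets were below the floor on both arrays, between 13.7 and 27.9 in the knockout and between 13.2 and 24.6 in the wild type. Tap2 read 173 (Id1 KO) and 84.0 (WT), 2.03-fold higher (1.02). That value lies just past 2-fold and fell below it with a floor at the median (0.16) with a pseudocount of 50 (0.72) and, by a narrow margin, with centring on autosomal genes (1.00). Tap1 and its opposite-strand neighbour Psmb9, which did not pass the filter, had log2 differences of 0.74 and 0.71. Their likeness was not tested.

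Tapbp encodes tapasin, the bridge between the transporter and the class I molecule. Probe set 1421812_at read 606 (Id1 KO) and 436 (WT), 1.37-fold higher (log2 difference 0.45). Probe set 1450378_at read 426 and 229, 1.83-fold higher (0.87). Both were higher in the knockout and both stayed under 2-fold.

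**Figure D2:**
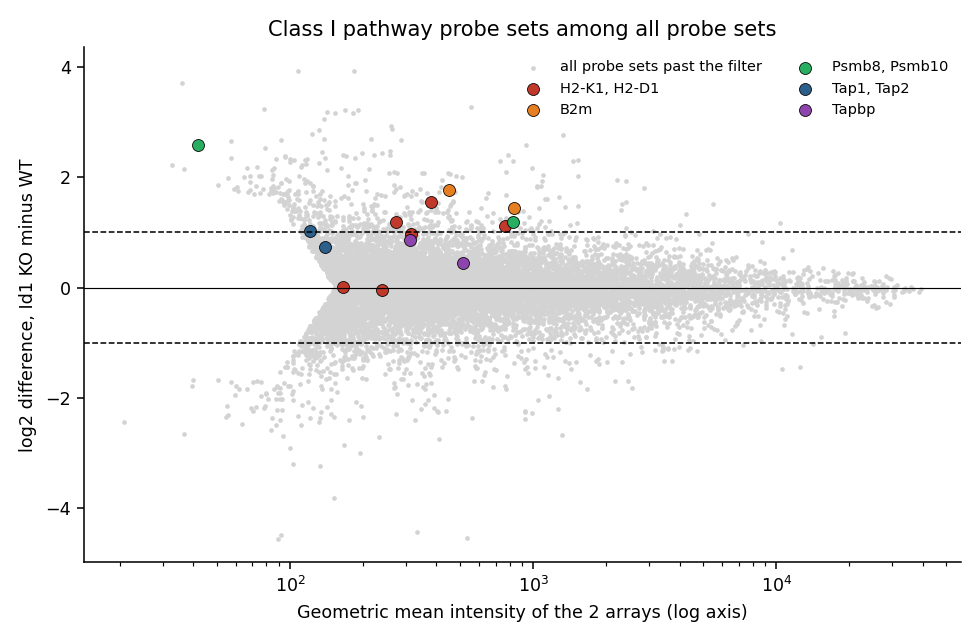
Log2 difference (Id1 KO minus WT) against the geometric mean intensity of both arrays (log axis) for the 12177 probe sets past the filter (grey) and the 14 of them that belong to class I pathway genes (coloured by gene). Dashed lines mark 2-fold. The coloured points lie between -0.05 and 2.58, and Psmb8 at the far left is a lower bound.

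At gene level, with the brightest probe set for each gene, 8 of the 9 genes passed the filter and 6 were at least 2-fold higher, against 3.92% of 7369 genes, and 0 were 2-fold lower, against 3.92% as well. At 1.5-fold 7 of the 8 were higher (10.5% of all genes), and at 3-fold 1, Psmb8 (1.45%). The 6 past 2-fold were H2-K1, H2-D1, B2m, Psmb8, Psmb10 and Tap2. Tap1 and Tapbp lay between 0 and 2-fold. The spread of differences depended on brightness. Among all probe sets whose brighter value was under 4 times the array median, 5.49% were 2-fold higher, and among brighter ones 2.54%. Of the members, 3 of 9 were 2-fold higher in the dimmer class, and 5 of 5 in the brighter class (1 of H2-K1, 1 of H2-D1, both of B2m, and Psmb10). The brighter count depends on the cut, since 1421812_at of Tapbp, at 606 (Id1 KO) and 1.37-fold higher, fell just short of it.

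The other genes of the pathway were followed in 7 lists by function, written with earlier results of these data known. In the 7 lists together, 54 genes passed the filter, 1 was 2-fold higher, 3 were 2-fold lower and the median log2 difference was -0.02. Over all genes past the filter, 3.92% were 2-fold higher and 3.92% 2-fold lower. Nothing is therefore read from these counts or from those of the single lists. Among 8 interferon receptor and kinase genes, the kinase gene Jak2 was 2.02-fold higher, at 187 against 91.0 (log2 difference 1.01), and the median was 0.03. The other probe set of Jak2 did not pass the filter, at 81.8 against 9.67.

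Of 11 regulators of class I transcription past the filter, 0 were 2-fold higher or lower, with differences from -0.46 to 0.60 and a median of -0.01. Irf1, an interferon-induced activator of class I genes, had the highest of these, at 1134 (Id1 KO) and 738 (WT) (1.51-fold). Stat2, a subunit of the interferon-activated factor ISGF3, stayed below the filter at 113 and 99.5. No probe set was assigned to Nlrc5, the class I transactivator, or to the PA28 subunit gene Psme2 alone, and these are not analysed here.

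Of 10 genes for loading complex partners and peptide trimming, 0 were past 2-fold (median -0.03, range -0.93 to 0.32). The chaperone genes Calr and Canx, whose products hold class I chains during folding, had differences of 0.30 and 0.13. Pdia3, the tapasin-linked thiol oxidoreductase, had -0.02. Of 12 genes for surface export and quality control, Bcap31, an endoplasmic reticulum receptor involved in export of class I molecules, was 2.15-fold lower, at 2353 against 4978, and its other probe set had a log2 difference of -0.70. Bcap31 lies on the X chromosome, whose genes had a median of -0.55, and its part in this value was not tested. The median of that list was 0.03.

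Of 26 other class I and class I-like genes listed, 11 had a probe set of their own. These were mostly dim, and 4 of the 11 passed the filter. Among these, Cd1d1, a lipid-presenting class I-like molecule, was 2.24-fold lower at 98.1 against 216 (log2 difference -1.16). Of the 4 genes, 0 were 2-fold higher, and their median was -0.53. Probe sets shared by several class I or class I-like genes are not in this median. Of 6 such probe sets past the filter, 5 were above 0, as described at the end. H2-T3 had -0.49, the neonatal Fc receptor gene Fcgrt -0.56 and the iron regulator gene Hfe 0.24. Of 9 class II genes, which present peptides in antigen-presenting cells, 2 passed the filter, H2-Eb1 at 180 against 390 (2.21-fold lower) and the invariant chain gene Cd74 at 193 against 209 (-0.13). Below the filter, the class II beta chain gene H2-Ab1 went the other way, at 104 against 8.68, at least 2.15-fold higher, and the class II transactivator gene Ciita read 71.2 and 73.9.

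**Figure D3:**
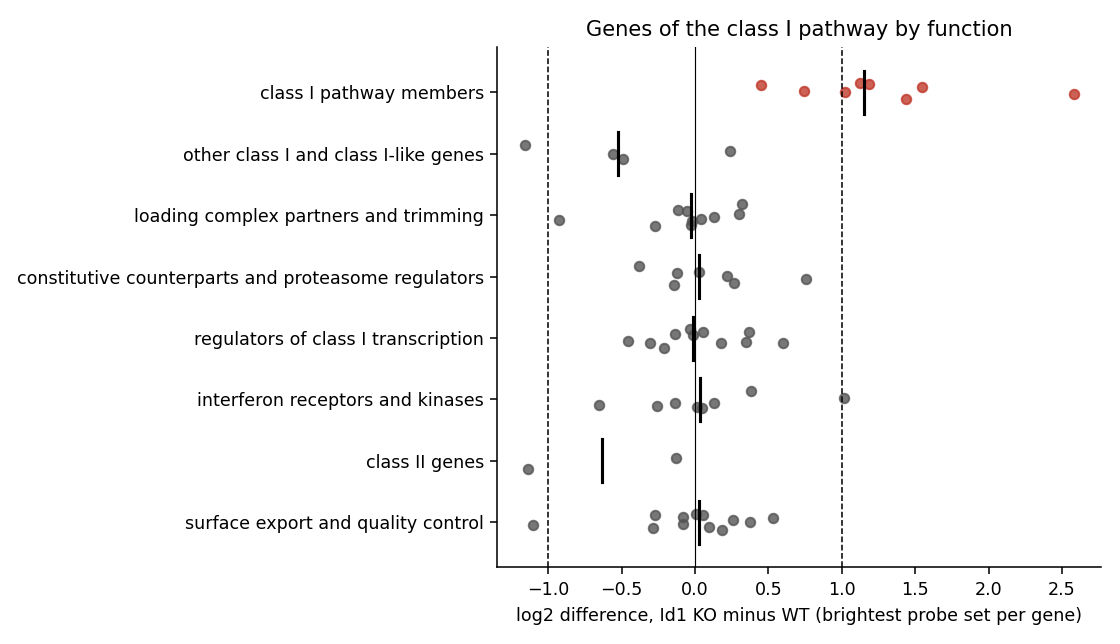
Log2 difference (Id1 KO minus WT) of each gene past the filter, by its brightest probe set, for the class I pathway members (red) and 7 lists of related genes (grey). Black bars are medians and dashed lines mark 2-fold. Member values run from 0.45 to 2.58 and their median is 1.15, while the medians of the 7 lists lie between -0.64 and 0.03. The class II median rests on 2 genes and that of other class I genes on 4.

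Markers of other cells in which class I is abundant were read on both arrays. With 3.92% of all genes past the filter 2-fold higher and 3.92% 2-fold lower, nothing is read from the marker counts. Of 12 feeder fibroblast genes, 3 passed the filter and 0 were 2-fold higher, with a summed intensity of 1561 (Id1 KO) and 1428 (WT). The brightest of them was Fbln1, at 595 against 641. Col3a1, Postn, Pdgfrb and Pdgfra were below the floor on the knockout array. Among the 9 that did not pass, Col1a1 read 133 against 83.0 (0.65), and Mmp3 (84.4 against 18.5), S100a4 (78.2 against 6.45) and Dcn (71.9 against 18.1) were above the floor on the knockout array and below it on the wild-type array. The part of such cells in the class I values was not tested. Of 10 blood cell genes, 3 passed, 0 were 2-fold higher and Laptm5 was 2-fold lower (2.04-fold by the probe set that stood for the gene, 6.59-fold and 5.28-fold by its other 2), with a sum of 1049 (Id1 KO) and 1328 (WT). The leukocyte genes Ptprc and Itgam were below the floor on both arrays. Of 6 endothelial genes 2 passed and 0 were past 2-fold, with sums of 679 and 734. All 8 ES cell markers passed on both arrays, and Nanog was the member past 2-fold (-1.33). In bulk RNA, a higher signal in every cell and a larger number of cells with signal cannot be told apart.

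Of the 9 genes, 7 lie in the H2 region of chromosome 17, while B2m is on chromosome 2 and Psmb10 on chromosome 8. From Tapbp to H2-D1, 68 other genes had a probe set and 39 passed the filter. Of these 39, 1 was 2-fold higher and 2 were 2-fold lower, against 3.92% of all genes each way, and the median log2 difference was 0.11. Nothing is read from these counts. The gene that was higher is Ring1, a Polycomb gene next to H2-K1 among genes past the filter, at 167 (Id1 KO) and 35.9 (WT), at least 3.46-fold. Those lower were H2-Eb1 and the meiotic mismatch repair gene Msh5 (2.04-fold). The nearest genes past the filter on the 2 sides of the members were 12 genes, with 0 to 25 RefSeq genes in between. Of the 12, Ring1 was 2-fold higher and H2-Eb1 2-fold lower (median 0.08). Beside the same shares over all genes, nothing is read from these counts either. Rgl2, next to Tapbp, had 0.31, and Brd2 and H2-Eb1, on either side of the Psmb9, Tap1, Psmb8 and Tap2 cluster, had 0.07 and -1.14. Frmd5 and Slc30a4 on the sides of B2m, with 9 and 25 RefSeq genes in between, had 0.81 and -0.43. Edc4 and Slc12a4 on the sides of Psmb10, with 3 and 1 in between, had 0.07 and 0.49. Over all genes past the filter the chromosome medians were -0.03 for chromosome 17, -0.02 for chromosome 2 and 0.15 for chromosome 8.

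**Figure D4:**
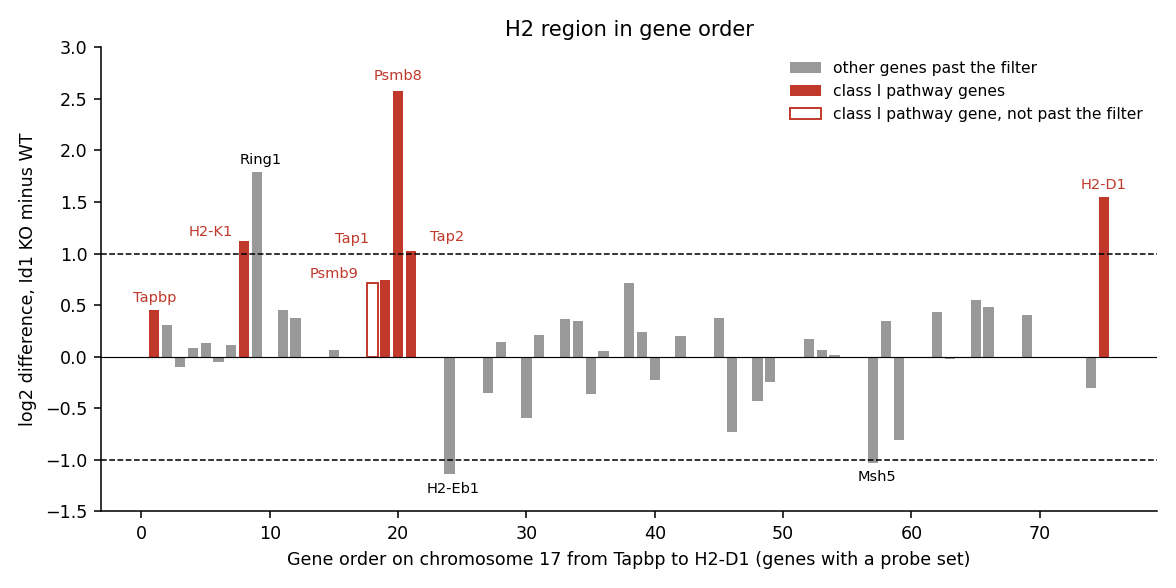
Log2 difference (Id1 KO minus WT) by gene order on chromosome 17 from Tapbp to H2-D1, with class I pathway genes in red (Psmb9, open bar, not past the filter) and the 39 other genes past the filter in grey. Dashed lines mark 2-fold and the bars of Psmb8 and Ring1 are lower bounds. H2-K1, Psmb8, Tap2, H2-D1 and Ring1 reach the upper line, and H2-Eb1 and Msh5 the lower one.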

How the data were processed

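RNA was extracted with RNeasy and labelled with biotin by in vitro transcription, per the labels' protocols. The authors deposited linear intensities, 1 per probe set, and no source used here names the summary software or the scaling. The mean intensity without the outer 2% on each side was 500.2 for either array, so a common scale had been set. Probe sets were named by the 2016 platform annotation: 20380 had 1 symbol, 691 several and 1555 none, and 64 controls were left out.

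Intensities were converted to log2, centred on each array's median (a shift of 0.02), floored at the pooled 25th percentile and subtracted with Python 3.11.15, pandas 2.3.3 and numpy 2.4.6. The steps were checked on simulated arrays. Each gene was represented by its brightest probe set on average. Named genes were the members, list genes past 2-fold, a fixed set of counterparts and regulators, and nearest neighbours. Msh5, the genes with the promoter motif and further list members were named after their values were seen. Members and lists were chosen with earlier results of these data known. RefSeq tables of GRCm38.p6 gave gene order and promoters. With 1 array per genotype nothing was tested, and the number of arrays limits the precision. Alternatives covered scaling, floor, pseudocount, filter, probe set choice and threshold.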

Additional observations from a re-analysis of the deposited data

Results flagged for a closer look

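The rule of 1 symbol per probe set left out 12 probe sets that name a class I gene together with others. Of these, 6 passed the filter and 2 were past 2-fold, both higher in the knockout, against 4.18% of all probe sets past the filter. The difference was above 0 in 5 of the 6, against 50% of all. These 5 passed only through the knockout array, with wild-type values below the median of 152.5, so nothing is read from the counts. The probe sets are listed because they hold signal outside those described above. The probe set 1418536_at, assigned to H2-Q9 and H2-Q7, read 223 (Id1 KO) and 77.3 (WT) (log2 difference 1.51). The probe set 1449875_s_at, assigned to H2-T9, H2-T22 and H2-T10, read 169 and 80.8 (log2 difference 1.04). A probe set assigned to H2-Q6 and H2-Q8 read 217 and 121 (0.82), and 1 assigned to H2-Q5 and the member H2-K1 read 177 and 115 (0.59). The probe set assigned to Raet1e and Raet1d was lower in the knockout, at 324 and 381 (-0.26). The probe set assigned to H2-K1 and H2-D1 is described above. Which of the named genes gave the signal was not tested. In the H2 probe sets, cross-hybridisation of H2-K1 or H2-D1 transcripts cannot be told apart from signal of the other named genes.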

How the results depend on the processing

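No paired analysis was possible because each genotype had 1 array. With 1.5-fold as the threshold 11 of the 14 member probe sets and 7 of 8 genes were higher, and with 3-fold 2 probe sets and 1 gene. At 2-fold, the 6 of 8 genes fell to 4 with a floor at the median. They fell to 5 with centring on autosomal genes, a pseudocount of 50 or the mean over passing probe sets. The 8 of 14 probe sets fell to 6 with a floor at the median, and to 7 with centring on autosomal genes or the pseudocount. Without probe sets ending in _s_at or _x_at, 5 of 8 member probe sets were 2-fold higher (4.35% of all). The median of the member probe sets was 0.74 with no filter. The related lists had 2 genes 2-fold higher with no filter, and 0 with centring on autosomal genes, a floor at the median, a pseudocount of 50 or both values at the median; with the pseudocount 1 was lower. Of the neighbours, 0 were 2-fold higher with a floor at the median or both values at the median, and 0 lower with the pseudocount. Psmb8 ranged from 0.90 with a floor at the median to 5.55 with no floor. With the mean over passing probe sets, H2-K1 fell to 0.57, under 2-fold, and H2-D1 was at 1.26. B2m stayed between 1.36 and 1.61 and Psmb10 between 1.12 and 1.21 under every alternative run. No member called 2-fold higher changed sign under any alternative run in which it passed the filter. Without probe sets ending in _s_at or _x_at, H2-K1 had no probe set left and H2-D1 none past the filter. Those left for H2-D1 went opposite ways, 1451934_at at -0.68 and 1426324_at at 0.85 in the main run, both bounds. With both values at the median, Psmb8 and Tap2 dropped out. Dim signals on the wild-type array limit the sizes for Psmb8, Tap1, Tap2 and Psmb9.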
